A study of Mus musculus with 6 samples.

Results

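The Rab GTPases are the largest branch of the Ras-like small GTPases. Their members were taken here as all protein-coding genes with a symbol of Rab, a number and at most a letter and a further digit, after the gene identifiers were joined to the GENCODE annotation. This rule gave 59 of the 47643 gene identifiers in the count tables, and 51 of the 59 had enough reads to be tested. The libraries come from dorsal root ganglia, the clusters of sensory neurons beside the spinal cord, of embryos of CD-1 mice at embryonic day 13. Of 6 libraries, 3 are of cells infected with a control lentivirus (shControl) and 3 of cells infected with a lentivirus whose short hairpin targets Uhrf1 (shUHRF1), so every library is of infected cells. UHRF1 is a nuclear protein that binds DNA methylated on one strand after replication and brings in DNMT1 to copy the methylation. The stated purpose of the series was to examine transcription after the knockdown of UHRF1 in neurons that had not been injured. The labels name no promoter for the hairpins and no sorting of cells, and they leave unsaid whether the 3 numbered replicates of a group are separate cultures. Every p-value thus reflects only how these libraries vary, and that variation may be technical.

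A Rab protein cycles between an active state bound to GTP, which sits on a membrane and recruits effectors, and an inactive state bound to GDP. Exchange factors (GEFs) switch it on, GTPase-activating proteins (GAPs) switch it off, and escort proteins and GDP dissociation inhibitors (GDIs) carry the lipid-modified protein to and from membranes. Each Rab marks certain organelles, and in neurons with long axons the family serves synaptic vesicle release, recycling of receptors, membrane addition at growing tips and the transport of signalling endosomes to the cell body. Members were assigned to 1 of 6 groups by the compartment they are best known for, although several act at more than 1.

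The libraries held 15599776 to 22382813 reads in genes, and the groups lay apart on a first principal component that held 64.2% of the variance. Uhrf1 itself was close to undetected, with 8, 6 and 5 reads in the shControl libraries and 2, 1 and 5 reads in the shUHRF1 libraries. Its mean was 0.364 ± 0.115 CPM (reads per 1000000 reads in genes, on scaled library sizes; SD over 3 libraries) in shControl, against 0.130 ± 0.0981 CPM in shUHRF1. The groups overlapped, since shControl replicate 3 and shUHRF1 replicate 3 each had 5 reads (exact two-sided permutation p = 0.20, where 3 against 3 libraries cannot go below 0.10). At this depth the targeted gene did not separate the labelled groups. Markers of other cell types moved with the groups. All 20 neuronal markers were tested, and 0 were called higher and 2 lower, with a summed level of 29645 to 35204 CPM in shControl and 23206 to 29371 CPM in shUHRF1. Of 16 glial markers 14 were tested, 10 were higher and 1 was lower. Their sum was 475 to 582 CPM against 154 to 533 CPM, made up mostly of S100b, Mbp, Pmp22 and Cnp, whereas the glial regulator Sox10 had a mean of 0.289 CPM in shControl and 2.05 CPM in shUHRF1. Of 14 fibroblast markers 10 were tested and 9 were higher, with sums of 8.83 to 13.7 CPM against 74.4 to 180 CPM. Of 12 macrophage markers 9 were tested and 5 were higher, with sums of 7.32 to 14.2 CPM against 18.8 to 49.4 CPM. Of 8 endothelial markers 4 were tested, 1 was higher and 0 were lower, with sums of 36.2 to 39.1 CPM against 28.2 to 42.0 CPM. Of 7 melanocyte markers 2 were tested and 0 called, with sums of 1.81 to 3.43 CPM against 3.65 to 6.74 CPM, and the pigment enzyme genes Tyr and Dct had 0 reads in every shControl library. None of the 8 epithelial markers had enough reads to be tested, and their sums were 0.465 to 0.813 CPM against 1.57 to 1.94 CPM. Of all tested genes 11.6% were called higher and 12.4% lower. Markers with too few reads in shControl could be tested only through their shUHRF1 reads, which favours higher calls among those tested. How many markers this concerns was not counted. With the replicate number as a block, 2 neuronal markers were higher and 4 lower, and 10 fibroblast, 6 macrophage and 1 melanocyte marker were higher. With that block 15.3% of all tested genes were higher and 15.7% lower. The part of these shifts in the Rab values was not tested. In such bulk samples, fewer cells of a type and less RNA per cell cannot be told apart.

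Across the family, Rab transcripts were lower in shUHRF1 more often than higher. Of the 51 tested members, 14 were called lower and 2 higher in edgeR's quasi-likelihood test at an adjusted p below 0.05, and 35 were not called. The lower share was 27.5%, beside 12.4% of all 15573 tested genes, and the higher share was 3.92%, beside 11.6%. Lower calls were more frequent among well expressed genes in general. Among the 7964 tested genes whose mean reached 16 CPM, 19.9% were lower and 9.29% higher, whereas of the 38 Rab genes at that level 13 (34.2%) were lower and 1 was higher. The 13 tested Rab genes below that level held 1 lower and 1 higher call. The lower shares of single compartments below are mostly set beside all tested genes, not beside this 19.9% of well expressed genes. The 3 shUHRF1 libraries lay below all 3 shControl libraries for 24 tested members, beside 22.3% of all tested genes. They lay above them for 4 tested members, beside 21.7%. The groups overlapped for the other 23 tested members. Of the untested members, Rab7b, Rab20, Rab38 and Rab19 lay above shControl in CPM without overlap, on at most 14 reads in a library. The other untested members overlapped. How common such differences are among all untested genes was not computed. Every shUHRF1 library had reads in more genes (25288 to 26115) than any shControl library (23310 to 24221). The log2 fold change was negative for 40 members (78.4%), beside 48.6% of all tested genes and 58.2% of those with at least 16 CPM. The median over the tested members was -0.34, against 0.02 over all tested genes and -0.08 over those with at least 16 CPM.

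Summed over all 59 members, Rab transcripts made up 6757, 6066 and 6797 CPM in shControl replicates 1 to 3 and 5233, 5422 and 5788 CPM in the shUHRF1 replicates. The means were 6540 ± 411 and 5481 ± 282 CPM (SD, n = 3), and the groups did not overlap. Same-numbered libraries of the groups shared deviations, and with the replicate number as a block 22 members were lower and 4 higher, beside 15.7% and 15.3% of all tested genes. All 16 members called without the block were also called with it. When shControl replicate 1, then shControl replicate 3, then shUHRF1 replicate 3 was left out, the number of lower members was 7, 8 and 9, and 1 member was higher in each of these fits. Genes called in either direction fell from 3735 to 2018, 1768 and 2171 in these fits. Upper-quartile scaling moved the median over all tested genes up by 0.13 and gave 7 lower and 3 higher members, with 3890 genes called in all. These totals were not split by direction, so no lower or higher share of all tested genes stands beside these Rab counts. Relative to the median of all genes the Rab median was -0.35 with upper-quartile scaling and -0.35 with the TMM scaling used otherwise. A change of scaling shifts the log2 fold changes of all genes nearly alike, so this difference could hardly have moved. Of the 16 called members, Rab35, Rab3d, Rab22a, Rab39, Rab12, Rab27b and Rab1b kept their lower call, and Rab37 its higher call, when any 1 library was left out. Rab37 had enough reads to be tested only through the shUHRF1 libraries.

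**Figure D1:**
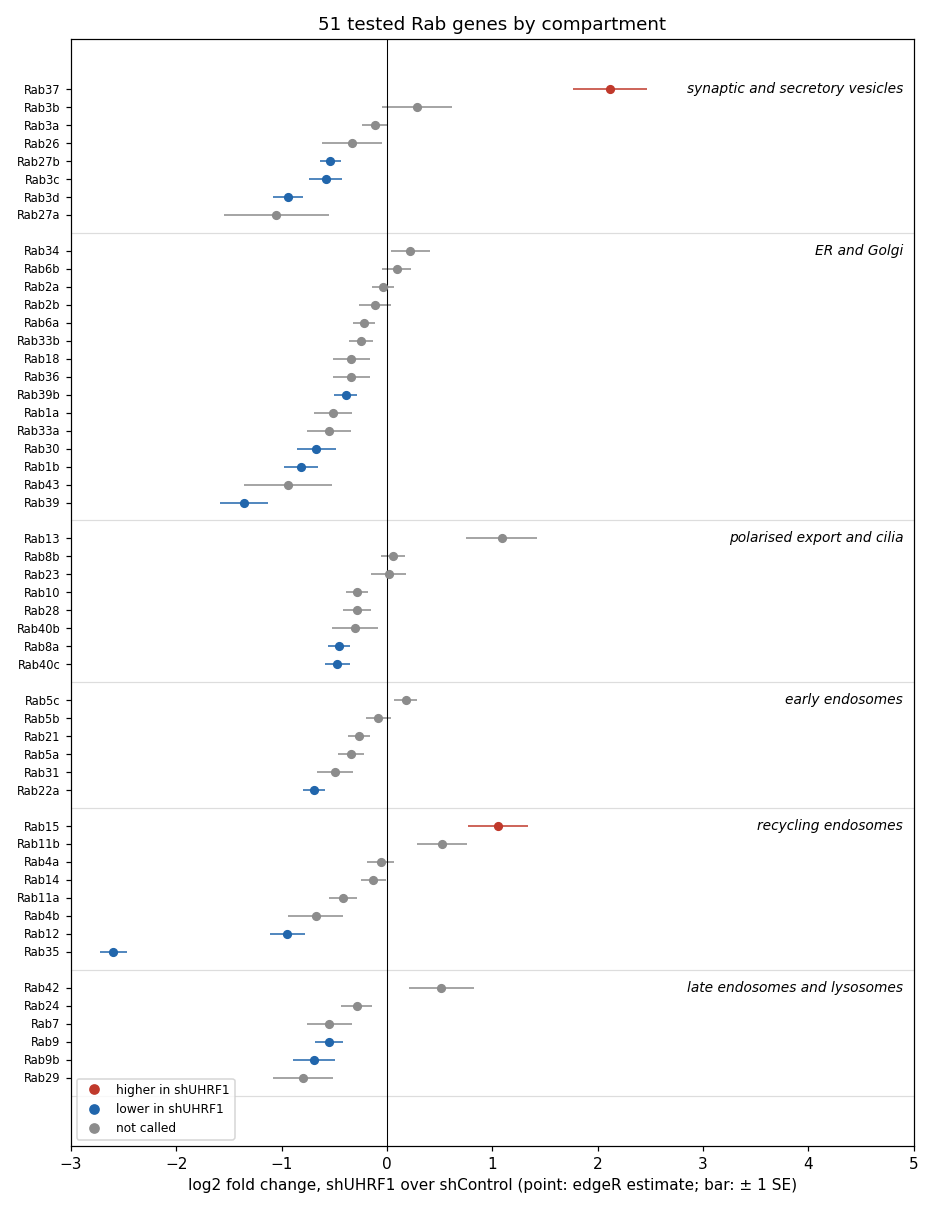
Log2 fold change of shUHRF1 over shControl for the 51 tested Rab genes, grouped by compartment (points, edgeR estimate; bars, ± 1 SE; n = 3 libraries per group; red called higher, blue called lower, grey not called). Rab35 lies at -2.60, and the 2 called rises are Rab37 at 2.12 and Rab15 at 1.05.

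**Figure D2:**
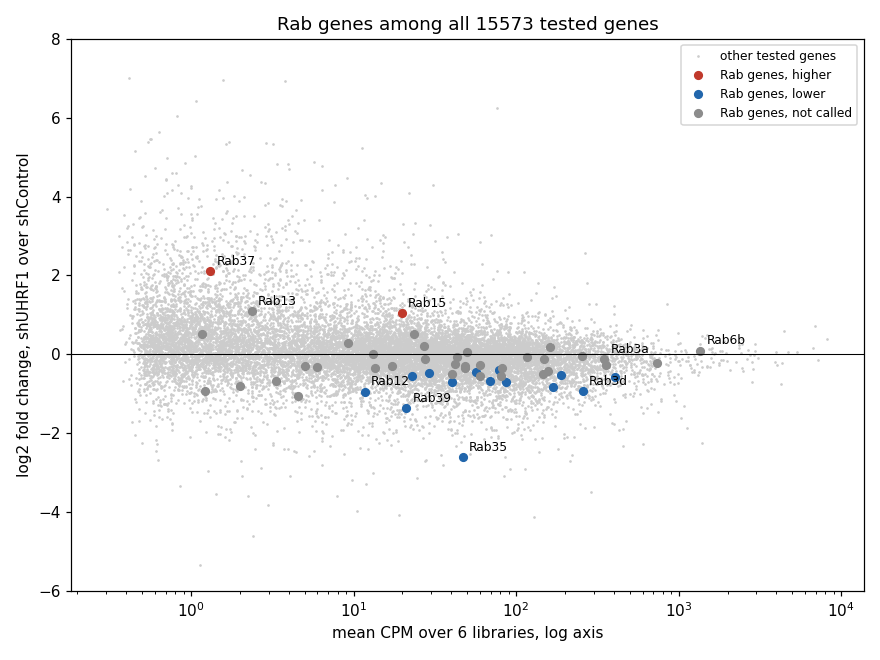
Log2 fold change of shUHRF1 over shControl against the mean level over 6 libraries in CPM (log axis) for all 15573 tested genes (small points) and the Rab genes (large points, coloured by call). Of the 38 Rab genes at or above 16 CPM, 13 are called lower and 1 higher.

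Rab35 differed most in the family. It belongs to the recycling endosomes, where it returns cargo to the plasma membrane, and it also acts in neurite outgrowth and at the bridge between dividing cells. Rab35 (ENSMUSG00000029518.15, chromosome 5, 115631908 to 115647736, plus strand, GRCm38) had 85.2, 70.8 and 85.2 CPM in shControl replicates 1 to 3 and 13.9, 13.4 and 12.5 CPM in the shUHRF1 replicates. The groups did not overlap, and the shUHRF1 libraries lay within a narrow range. The means were 80.4 ± 8.33 CPM and 13.3 ± 0.672 CPM (SD, n = 3). This is a log2 fold change of -2.60 ± 0.13 (SE; edgeR adjusted p = 0.000205), or a 6.06-fold lower level. By p-value Rab35 ranked 2 of the 15573 tested genes, and by size of fall 30. Over the 16 alternative fits its log2 fold change remained between -2.70 and -2.47.

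Because UHRF1 acts on methylation at CpG dinucleotides, the CpG content of Rab promoters was counted in RefSeq windows (GRCm38.p6) from 250 bases before to 50 bases after a start site. Methylation was not measured. Of the 59 members 48 had a window. The promoters of the member with the largest fall and of the better expressed of the 2 genes that were higher are shown 5′ to 3′ on the gene's strand, with each CG in capitals.
Rab35: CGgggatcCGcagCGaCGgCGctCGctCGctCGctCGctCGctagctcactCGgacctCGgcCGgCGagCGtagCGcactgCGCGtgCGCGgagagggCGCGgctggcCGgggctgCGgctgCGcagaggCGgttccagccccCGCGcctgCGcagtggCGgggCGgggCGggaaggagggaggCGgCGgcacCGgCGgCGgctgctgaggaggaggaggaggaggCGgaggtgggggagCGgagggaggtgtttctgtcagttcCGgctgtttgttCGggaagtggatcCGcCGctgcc
Rab15: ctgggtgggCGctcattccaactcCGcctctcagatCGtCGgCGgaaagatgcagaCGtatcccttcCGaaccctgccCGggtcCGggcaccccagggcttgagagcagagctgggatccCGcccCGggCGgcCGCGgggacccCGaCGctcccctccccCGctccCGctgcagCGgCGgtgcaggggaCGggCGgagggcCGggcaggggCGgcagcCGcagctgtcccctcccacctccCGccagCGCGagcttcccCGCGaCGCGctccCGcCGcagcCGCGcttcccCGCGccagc
The Rab35 window (chr5:115631737-115632036, plus strand) holds 43 CpG, a number reached or passed by 2.61% of the 32851 windows in the table. The richest of the 4 Rab15 windows (chr12:76822475-76822774, minus strand) holds 38 CpG, reached or passed by 4.95%. The other 3 Rab15 windows hold 8, 4 and 3 CpG, and which of these starts was used here was not tested. Over the members with a window the median was 24.5 CpG, counting only the richest window of each member. The median over all 32851 windows, which include the poorer windows of genes with several, was 7. These medians are therefore not like for like. The 12 lower members had a median of 26.5 CpG, from 9 to 43, and the 30 members not called had a median of 25, from 6 to 45, so the ranges overlapped almost wholly.

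Known partners of Rab35 were looked up after its value was seen. Dennd1a and Dennd1b encode exchange factors that activate Rab35 at the plasma membrane and on clathrin-coated vesicles. Dennd1b was higher, with 35.8, 41.2 and 37.0 CPM in shControl, against 96.6, 72.6 and 83.5 CPM in shUHRF1, for a log2 fold change of 1.15 ± 0.14 (SE; edgeR adjusted p = 0.00164). Dennd1a had a log2 fold change of -0.11 (adjusted p = 0.675) and was not called, and Dennd1c had too few reads. Among the genes of its GAPs, Tbc1d10a (-0.39), Tbc1d10b (0.02), Tbc1d10c (-0.06) and Tbc1d13 (0.21) were not called. The effector genes Acap2 (-0.33), Micall1 (-0.44) and Ocrl (-0.12), whose products act on recycling membranes, were not called either. Of the 9 tested partners 1 was thus called higher and 0 lower, beside 11.6% and 12.4% of all tested genes.

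The other recycling Rab genes moved in both directions. Of 10 members 8 were tested, 2 were lower (Rab35 and Rab12) and 1 was higher (Rab15), and their median was -0.27. These calls are 25% lower and 12.5% higher, beside 12.4% and 11.6% of all tested genes. With the replicate block 3 were lower and 2 higher, beside 15.7% and 15.3% of all tested genes. The summed level of this group was 511, 492 and 529 CPM in shControl, against 363, 404 and 422 CPM in shUHRF1, without overlap. Rab12, which directs transferrin receptor from recycling endosomes toward lysosomes, had 14.9, 15.4 and 15.8 CPM in shControl, against 6.83, 9.36 and 7.80 CPM in shUHRF1. All shUHRF1 libraries were lower, and the log2 fold change was -0.95 ± 0.17 (SE; edgeR adjusted p = 0.00702). Rab15 slows the passage of receptors through early and recycling endosomes. It had 8.19, 15.9 and 14.4 CPM in shControl, against 28.5, 19.0 and 32.4 CPM in shUHRF1, for a log2 fold change of 1.05 ± 0.28 (SE; edgeR adjusted p = 0.0322). The lowest shControl and the lowest shUHRF1 library stood apart from the others of their groups. Its call was lost when shControl replicate 1, shControl replicate 3, shUHRF1 replicate 1 or shUHRF1 replicate 3 was left out (edgeR adjusted p = 0.0809, 0.0772, 0.0640 and 0.112).

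Rab11a, the Rab of the pericentriolar recycling compartment, had the highest level per length of its group, with means of 60.1 and 44.9 CPM per kb of exon in shControl and shUHRF1. It had 185, 172 and 183 CPM in shControl, against 111, 143 and 149 CPM in shUHRF1, which did not overlap. Its log2 fold change of -0.42 ± 0.13 (SE) missed the threshold (edgeR adjusted p = 0.0540) and passed it with the replicate block (adjusted p = 0.0439). Its close relative Rab11b lay in the opposite direction, with 19.5, 14.4 and 24.1 CPM in shControl, against 30.0, 20.6 and 32.6 CPM in shUHRF1. Those groups overlapped, although each shUHRF1 replicate exceeded the shControl replicate of its number, and the log2 fold change of 0.52 had an edgeR adjusted p of 0.145 without and 0.0166 with the block. Rab14, which acts between the Golgi and endosomes (-0.13), and Rab4a, a Rab of fast recycling (-0.06), were not called. Rab4b (-0.68, adjusted p = 0.0938) shares 65.0% of its exonic length with a readthrough gene on the same strand, so its counts are uncertain. Rab17 and Rab25, known from epithelial cells, had at most 4 reads in a library.

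The Rab genes of synaptic and secretory vesicles, which tether vesicles before regulated release, included 3 lower and 1 higher of 8 tested members, with a median of -0.44. That is 37.5% lower and 12.5% higher, beside 12.4% and 11.6% of all tested genes. Under the block 4 were lower and 1 higher, beside 15.7% and 15.3% of all tested genes. The summed level of this group was 1477, 1304 and 1518 CPM in shControl, against 937, 993 and 1106 CPM in shUHRF1, without overlap. The Rab3 proteins sit on synaptic vesicles and dense-core granules. Rab3d had 375, 285 and 356 CPM in shControl, against 155, 190 and 186 CPM in shUHRF1, for a log2 fold change of -0.93 ± 0.14 (SE; edgeR adjusted p = 0.00401). Rab3c had 464, 468 and 525 CPM in shControl, against 265, 315 and 394 CPM in shUHRF1, with a log2 fold change of -0.58 ± 0.16 (SE; edgeR adjusted p = 0.0326). Both genes lay lower in every shUHRF1 library. Rab3a, the main Rab of synaptic vesicles, had the highest level per length of the group, with means of 163 and 151 CPM per kb of exon. It had 391, 313 and 385 CPM in shControl, against 344, 321 and 340 CPM in shUHRF1, which overlapped (log2 fold change -0.11 ± 0.12, SE; edgeR adjusted p = 0.540), and with upper-quartile scaling its log2 fold change was 0.014. Rab3b (0.29, adjusted p = 0.582) also overlapped. The call for Rab3c was lost with upper-quartile scaling (adjusted p = 0.0653) and when any 1 library other than shUHRF1 replicate 3 was left out (edgeR adjusted p from 0.0541 without shUHRF1 replicate 1 to 0.111 without shControl replicate 3).

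Rab27b, which serves secretory granules and the axonal transport of TrkB receptors, had 223, 222 and 228 CPM in shControl, against 156, 145 and 163 CPM in shUHRF1. The groups stood well apart relative to their spread, with a log2 fold change of -0.54 ± 0.10 (SE; edgeR adjusted p = 0.00827). Rab27a, best known for carrying melanosomes, had 5.11, 6.86 and 6.46 CPM in shControl, against 1.35, 5.77 and 1.89 CPM in shUHRF1. Its shUHRF1 replicate 2 overlapped shControl, and the log2 fold change of -1.05 ± 0.50 (SE) was not called (edgeR adjusted p = 0.165), but it was with the block (-1.26, adjusted p = 0.0354). Rab37, known from the secretory granules of mast cells and other secretory cells, was higher from a low level. It had 0.348, 0.583 and 0.526 CPM in shControl, against 2.29, 2.47 and 1.65 CPM in shUHRF1, for a log2 fold change of 2.12 ± 0.35 (SE; edgeR adjusted p = 0.00546). Those levels rest on 6, 9 and 11 reads in shControl and 51, 42 and 34 reads in shUHRF1, and Rab37 does not pass a filter of 2 CPM in 3 libraries. It had enough reads to be tested only through the shUHRF1 libraries, where it is high. Rab26, which clusters synaptic vesicles for autophagy, overlapped between the groups (-0.33, adjusted p = 0.437).

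**Figure D3:**
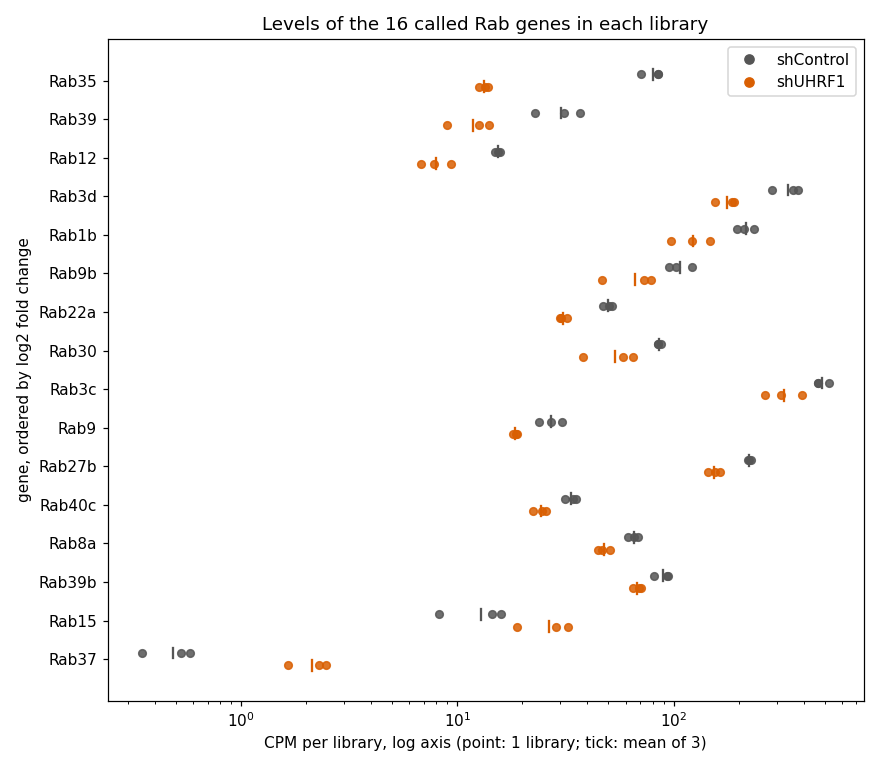
Level of the 16 called Rab genes in each library in CPM (log axis), ordered by log2 fold change (points, single libraries; ticks, means of 3; grey shControl, orange shUHRF1). The groups do not overlap for any of the 16, and Rab35 falls from 70.8 to 85.2 CPM in shControl to 12.5 to 13.9 CPM in shUHRF1.

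Among the Rab genes of the endoplasmic reticulum and Golgi, 4 of 15 tested members were lower and 0 higher, with a median of -0.34. The lower share was 26.7%, beside 12.4% of all tested genes, and the higher share was 0%, beside 11.6%. Under the block 7 were lower and 0 higher, beside 15.7% and 15.3% of all tested genes. The summed level of this group was 3377, 2917 and 3326 CPM in shControl, against 2802, 2893 and 3057 CPM in shUHRF1, which overlapped. Rab1a and Rab1b carry vesicles from the endoplasmic reticulum to the Golgi. Rab1b had 237, 198 and 213 CPM in shControl, against 97.5, 148 and 122 CPM in shUHRF1, for a log2 fold change of -0.82 ± 0.16 (SE; edgeR adjusted p = 0.0107). Rab1a had 186, 131 and 202 CPM in shControl, against 119, 105 and 139 CPM in shUHRF1, which overlapped (-0.51, adjusted p = 0.0781 without and 0.0170 with the block). Rab39 and Rab39b are related Rabs of the secretory and autophagic routes, and loss of human RAB39B causes intellectual disability. Rab39 had 36.8, 23.0 and 31.2 CPM in shControl, against 8.98, 14.0 and 12.6 CPM in shUHRF1, for a log2 fold change of -1.36 ± 0.23 (SE; edgeR adjusted p = 0.00573). Rab39b had 93.0, 94.1 and 81.0 CPM in shControl, against 64.6, 70.4 and 69.5 CPM in shUHRF1, for a log2 fold change of -0.39 ± 0.11 (SE; edgeR adjusted p = 0.0354). Both were lower in every shUHRF1 library. An antisense gene covers 18.6% of the exonic length of Rab39b, and reads of the pair cannot be told apart without the strand setting. Rab30, a Rab of the Golgi, had 84.8, 87.3 and 84.4 CPM in shControl, against 38.2, 64.7 and 58.2 CPM in shUHRF1, for a log2 fold change of -0.67 ± 0.19 (SE; edgeR adjusted p = 0.0350). The call for Rab30 was lost with upper-quartile scaling (adjusted p = 0.0662) and without any 1 shControl library or shUHRF1 replicate 3 (edgeR adjusted p = 0.0771 to 0.0919). That for Rab39b was lost with upper-quartile scaling (adjusted p = 0.132), with the filter of 2 CPM (adjusted p = 0.0540) and when any 1 library other than shUHRF1 replicate 2 was left out (edgeR adjusted p = 0.0557 to 0.112).

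The most abundant Golgi Rab genes were not called. Rab6b, the neuronal relative of Rab6a in traffic from the Golgi, had the highest level per length of the whole family, with means of 262 and 279 CPM per kb of exon. It had 1412, 1085 and 1450 CPM in shControl, against 1362, 1377 and 1471 CPM in shUHRF1, which overlapped (0.09 ± 0.14, SE; edgeR adjusted p = 0.673), and the sign turned without shControl replicate 2 (-0.045). Rab6a (-0.22, adjusted p = 0.175) lay below shControl in every shUHRF1 library and was not called, and the gene Mrpl48 on the opposite strand covers 19.0% of its exonic length. Rab2a, which acts between the Golgi and the endoplasmic reticulum, had a log2 fold change of -0.04 ± 0.10 (SE; adjusted p = 0.828). Rab33a, a brain-enriched Rab of vesicles that add membrane to growing axons, had 75.7, 75.2 and 64.2 CPM in shControl, against 64.3, 34.9 and 47.8 CPM in shUHRF1. Those groups overlapped narrowly (-0.55, edgeR adjusted p = 0.0953 without and 0.0447 with the block). Rab43 (-0.94, adjusted p = 0.141 without and 0.0489 with the block) shares 75.4% of its exonic length with another gene on the same strand and is uncertain. Rab18, Rab33b, Rab34, Rab36 and Rab2b were not called, with log2 fold changes of -0.34, -0.25, 0.22, -0.34 and -0.11, and Rab19 had at most 3 reads in a library. Predicted genes on the opposite strand cover 59.3% of the exonic length of Rab2b and 18.7% of that of Rab33b, so these counts are uncertain.

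The products of the early endosome Rab genes govern the first sorting of internalised receptors. Of 6 tested members 1 was lower and 0 higher, with a median of -0.30. The lower share of 16.7% was near the 12.4% of all tested genes. With the replicate block 3 were lower, beside 15.7% of all tested genes. Rab22a, a Rab5 relative on early endosomes, had 52.1, 47.1 and 50.1 CPM in shControl, against 32.2, 30.3 and 29.9 CPM in shUHRF1, for a log2 fold change of -0.69 ± 0.11 (SE; edgeR adjusted p = 0.00418). The closest libraries of the groups were 47.1 and 32.2 CPM. Rab5c had the highest level per length of this group, with means of 69.2 and 78.3 CPM per kb of exon. Its 152, 142 and 162 CPM in shControl overlapped the 187, 159 and 170 CPM in shUHRF1 (0.18 ± 0.11, SE; edgeR adjusted p = 0.283). Rab5a had 92.9, 84.7 and 97.9 CPM in shControl, against 68.2, 66.9 and 82.8 CPM in shUHRF1, and Rab31, which acts between the Golgi and endosomes, had 40.9, 46.4 and 54.0 CPM against 28.1, 32.3 and 40.0 CPM. Neither group pair overlapped. These genes missed the threshold without the block and passed it with the block (Rab5a -0.34, adjusted p = 0.0849 without and 0.0466 with it; Rab31 -0.49, 0.0666 and 0.0142). Rab21, which binds integrins (-0.26, adjusted p = 0.114), and Rab5b (-0.08, adjusted p = 0.673) were not called.

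Among the Rab genes of late endosomes, lysosomes and related organelles, 2 of 6 tested members were lower and 0 higher, with a median of -0.55. The lower share was 33.3%, beside 12.4% of all tested genes, and the higher share was 0%, beside 11.6%. With the replicate block 3 were lower, beside 15.7% of all tested genes. The summed level of this group was 292, 264 and 304 CPM in shControl, against 180, 197 and 216 CPM in shUHRF1, without overlap. Rab9 and Rab9b return receptors from late endosomes to the Golgi. Rab9 had 30.5, 27.2 and 23.9 CPM in shControl, against 18.8, 18.0 and 18.8 CPM in shUHRF1, for a log2 fold change of -0.55 ± 0.13 (SE; edgeR adjusted p = 0.0222). Rab9b had 103, 122 and 95.6 CPM in shControl, against 46.8, 78.7 and 72.7 CPM in shUHRF1, for a log2 fold change of -0.69 ± 0.20 (SE; edgeR adjusted p = 0.0399). Both genes were lower in every shUHRF1 library. The call for Rab9 was lost with upper-quartile scaling (adjusted p = 0.0567) and when shControl replicate 1, shControl replicate 2 or shUHRF1 replicate 3 was left out (edgeR adjusted p = 0.0806, 0.0520 and 0.0634). That for Rab9b was lost with upper-quartile scaling (adjusted p = 0.0770), with the filter of 2 CPM (adjusted p = 0.0552) and without any 1 shControl library or shUHRF1 replicate 3 (edgeR adjusted p = 0.0737 to 0.105).

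Rab7 directs late endosomes to lysosomes and travels with neurotrophin receptors along axons. It had the highest level per length of the late group, with means of 36.6 and 25.1 CPM per kb of exon. It had 98.1, 66.5 and 122 CPM in shControl, against 62.1, 59.5 and 74.6 CPM in shUHRF1, and shUHRF1 replicate 3 lay above shControl replicate 2. The log2 fold change of -0.55 ± 0.21 (SE) was not called (edgeR adjusted p = 0.10) but was with the block (adjusted p = 0.0310). Rab29, a regulator of the kinase LRRK2 (-0.80, adjusted p = 0.0795), Rab24 of autophagosome clearance (-0.29, adjusted p = 0.198) and Rab42 (0.52, adjusted p = 0.265) were not called. Prelid1 on the opposite strand covers 62.4% of the exonic length of Rab24, whose counts are therefore uncertain. The other late members were barely detected. Rab7b, known from macrophages, had 2, 2 and 2 reads in shControl and 10, 14 and 14 in shUHRF1. Rab38, which acts in making melanosomes, had 4, 1 and 1 reads in shControl and 10, 7 and 9 in shUHRF1. Rab20 of the early group, known from phagosomes, had 1, 1 and 0 reads in shControl and 5, 5 and 10 in shUHRF1. These 3 genes had more reads in every shUHRF1 library but were too low to be tested. A noncoding gene on the opposite strand covers 25.6% of the exonic length of Rab20, whose counts are therefore uncertain. Rab32, the close relative of Rab38, and Rab44 overlapped between the groups, with at most 14 and 5 reads in a library.

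The Rab genes of polarised export and cilia, which deliver vesicles to growing tips, junctions and the primary cilium, included 2 lower and 0 higher of 8 tested members, with a median of -0.29. The lower share was 25%, beside 12.4% of all tested genes and 19.9% of those with at least 16 CPM. The higher share was 0%, beside 11.6% and 9.29%. Under the block 2 were lower and 1 higher, beside 15.7% and 15.3% of all tested genes. Rab8a, which moves vesicles from the Golgi to the plasma membrane and the cilium, had 68.5, 65.9 and 61.6 CPM in shControl, against 51.1, 46.9 and 44.9 CPM in shUHRF1. Its log2 fold change was -0.46 ± 0.11 (SE; edgeR adjusted p = 0.0198). Rab40c, a substrate receptor of ubiquitin ligases, had 31.6, 35.2 and 34.3 CPM in shControl, against 22.5, 25.8 and 24.7 CPM in shUHRF1, with a log2 fold change of -0.47 ± 0.12 (SE; edgeR adjusted p = 0.0248). Neither gene overlapped between the groups. The call for Rab8a was lost with upper-quartile scaling (adjusted p = 0.0641) and when shControl replicate 1, shControl replicate 3 or shUHRF1 replicate 3 was left out (edgeR adjusted p = 0.0709, 0.0523 and 0.0730), and that for Rab40c with upper-quartile scaling (adjusted p = 0.0753) and without any 1 shControl library or shUHRF1 replicate 3 (edgeR adjusted p = 0.0559 to 0.0868). Rab10, which inserts membrane in growing axons, had the highest level per length of the group, with means of 111 and 91.4 CPM per kb of exon. Its 374, 400 and 396 CPM in shControl lay above the 295, 333 and 335 CPM in shUHRF1, yet the log2 fold change of -0.28 ± 0.11 (SE) was not called (edgeR adjusted p = 0.0910). Rab13, known from epithelial junctions and neurite outgrowth, had 1.68, 1.36 and 1.48 CPM in shControl, against 4.63, 2.18 and 2.81 CPM in shUHRF1. It was higher in every shUHRF1 library, with a log2 fold change of 1.09 ± 0.34 (SE; edgeR adjusted p = 0.0512 without and 0.0230 with the block). Rab8b (0.06), Rab23 (0.02), a brake on Hedgehog signalling, Rab28 (-0.29) and Rab40b (-0.30) were not called.

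Several subfamilies hold near relatives that can act on the same step, so the balance within each was measured as a member's share of its subfamily's reads per kb of exon. Such a share does not depend on how libraries are scaled. Of 18 shares in 13 subfamilies, 10 in 7 subfamilies did not overlap between the groups. Among the levels of all tested genes, 22.3% lay below and 21.7% above shControl without overlap. That background is for levels of single genes, and none was computed for shares. Shares within the same subfamily also depend on each other. Each of these 10 shares had an exact two-sided permutation p of 0.10, the smallest that 3 against 3 libraries can give, and an adjusted p of 0.18 over the 18 shares, so none could pass a threshold of 0.05. In the Rab3 subfamily the share of Rab3a was 57.3%, 56.5% and 56.9% in shControl against 71.5%, 66.2% and 65.4% in shUHRF1. The share of Rab3d was 29.1%, 27.3% and 27.9% in shControl against 17.2%, 20.8% and 18.9% in shUHRF1. That of Rab3c overlapped, with means of 14.2% and 12.1% (exact permutation p = 0.20). The share of Rab8a against Rab8b was 60.1%, 56.9% and 55.7% in shControl against 50.1%, 51.0% and 45.3% in shUHRF1, which placed the pair near equality in shUHRF1. Rab39 against Rab39b held 31.2%, 21.8% and 30.6% in shControl against 13.7%, 18.6% and 17.2% in shUHRF1. Smaller differences without overlap were a lower mean share of Rab11a (95.05% to 90.7%), Rab5a (15.1% to 11.6%) and Rab6a (45.1% to 39.7%), and a higher mean share of Rab5c (60.0% to 65.6%), Rab4a (92.4% to 94.8%) and Rab3b (0.807% to 1.29%). Some of these shares rest on uncertain counts. Rab4b, the other member beside Rab4a, shares 65.0% of its exonic length with a gene on the same strand. Genes on the opposite strand cover 19.0% of the exonic length of Rab6a and 18.6% of that of Rab39b. The shares of Rab1a, Rab2a, Rab27a, Rab33a, Rab40b, Rab5b and Rab9 overlapped between the groups. When same-numbered libraries are compared, the shares of Rab1a and Rab9 were higher and that of Rab3c lower in shUHRF1 in all 3 pairs, and the other overlapping shares differed in direction between pairs. In undivided reads 10 shares were also without overlap. In a subfamily of 2 members, dividing by length cannot change the order of the libraries. Only the shares in the Rab3 and Rab5 subfamilies could therefore have differed.

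**Figure D4:**
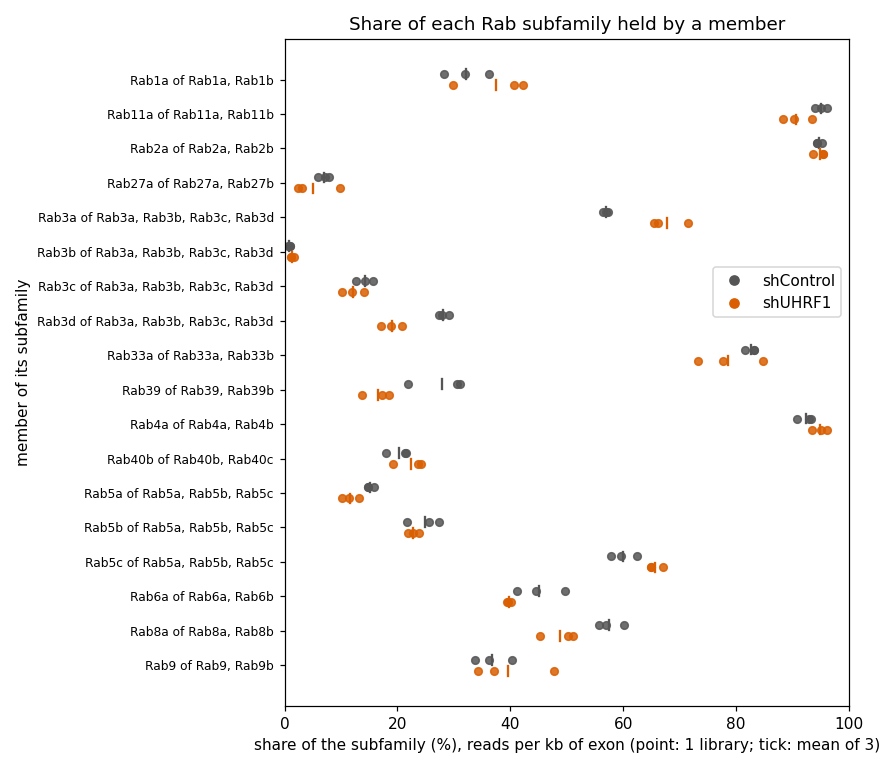
Share of each Rab subfamily's reads per kb of exon held by a member in each library, in percent (points, single libraries; ticks, means of 3; grey shControl, orange shUHRF1). The mean share of Rab3a is 56.9% in shControl and 67.7% in shUHRF1 and that of Rab3d 28.1% and 18.9%, and Rab8a lies between 55.7% and 60.1% in shControl against between 45.3% and 51.0% in shUHRF1.

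The genes that switch, carry and read Rab proteins were given as lists beside the family. Of 160 listed, 156 were tested, 15 (9.62%) were higher and 20 (12.8%) lower, shares close to those of all tested genes, and the median log2 fold change was -0.02. Single libraries moved these counts: 8 were higher without shControl replicate 3, and 9, 9 and 11 were lower without shControl replicate 1, shControl replicate 3 and shUHRF1 replicate 3, whereas 17 were higher and 24 lower without shUHRF1 replicate 2. With upper-quartile scaling 26 were higher and 13 lower. Shares of all tested genes by direction were not computed for these alternative fits. Among the 10 genes of prenylation and GDP dissociation, 3 (30%) were lower and 0 higher, beside 12.4% and 11.6% of all tested genes. Under the block 4 were lower, beside 15.7% of all tested genes. Chml, which encodes the second Rab escort protein, had 57.7, 56.8 and 55.3 CPM in shControl, against 10.4, 22.3 and 28.0 CPM in shUHRF1, for a log2 fold change of -1.49 ± 0.31 (SE; edgeR adjusted p = 0.0124). Its groups lay far apart, and the call was lost on the library pairs 1 and 3 alone (adjusted p = 0.0516). Chm, the gene of the first escort protein, had a log2 fold change of -0.08 and was not called. Ptp4a2, a prenylated phosphatase whose product binds the Rab geranylgeranyl transferase, was lower (-0.69 ± 0.11, SE; edgeR adjusted p = 0.00405). Rabif, a chaperone for certain Rab proteins, was lower (-0.42 ± 0.11, SE; edgeR adjusted p = 0.0293), a call lost with upper-quartile scaling (adjusted p = 0.0903) and when any 1 library other than shUHRF1 replicate 3 was left out (edgeR adjusted p = 0.0553 to 0.0982). Gdi2, which encodes a GDP dissociation inhibitor, had a log2 fold change of -0.06 and was not called.

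Of 40 tested GEF genes 5 (12.5%) were higher and 3 (7.5%) lower, beside 11.6% and 12.4% of all tested genes. Under the replicate block 8 were higher and 3 lower, beside 15.3% and 15.7% of all tested genes. Besides Dennd1b, the Rab3 and Rab8 regulator Rab3il1 was higher, with 0.871, 1.68 and 2.39 CPM in shControl, against 15.2, 7.30 and 15.1 CPM in shUHRF1 (2.91 ± 0.42, SE; edgeR adjusted p = 0.00323). Dennd2c, of the DENN family of exchange factors, was higher from under 1 CPM (2.20 ± 0.36, SE; edgeR adjusted p = 0.00504), and the TRAPP subunit gene Trappc5 was lower (-0.53 ± 0.11, SE; edgeR adjusted p = 0.0129). The call for Trappc5 was lost without shControl replicate 3 (adjusted p = 0.0586). Of 37 tested GAP genes 3 (8.11%) were higher and 4 (10.8%) lower, near the shares of all tested genes. Under the block 5 were higher and 6 lower, beside 15.3% and 15.7% of all tested genes. Tbc1d5, which acts on Rab7 with the retromer complex, was lower (-0.98 ± 0.14, SE; edgeR adjusted p = 0.00276), as were Rabgap1 (-0.68) and Evi5l (-0.72). Tbc1d4, which holds back glucose transporter vesicles through Rab10 and its relatives, was higher, with 14.8, 13.3 and 11.7 CPM in shControl, against 24.4, 31.7 and 25.5 CPM in shUHRF1 (1.04 ± 0.16, SE; edgeR adjusted p = 0.00432).

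Of 69 tested effector genes 7 (10.1%) were higher and 10 (14.5%) lower, near the 11.6% and 12.4% of all tested genes. Under the block 8 were higher and 11 lower, beside 15.3% and 15.7% of all tested genes. Myrip links Rab27 to myosin motors and actin, and it had 26.3, 22.6 and 23.6 CPM in shControl, against 5.39, 7.77 and 8.86 CPM in shUHRF1 (-1.72 ± 0.20, SE; edgeR adjusted p = 0.00164). It was lower in all shUHRF1 libraries by a wide margin. Rab11fip1, a Rab11 adaptor of recycling endosomes, had 1.74, 3.11 and 3.54 CPM in shControl, against 30.0, 13.3 and 20.97 CPM in shUHRF1 (2.93 ± 0.37, SE; edgeR adjusted p = 0.00191). Rph3a encodes rabphilin, which binds Rab3 and Rab27 on vesicles, and was higher (2.09 ± 0.31, SE; edgeR adjusted p = 0.00378). Fyco1, which links Rab7 to kinesin, was higher (1.18 ± 0.18, SE; edgeR adjusted p = 0.00390). Of the 7 Rab-like genes outside the naming rule, 1 was higher (Rabl3, 0.44 ± 0.14, SE; edgeR adjusted p = 0.0480) and 0 were lower. With the replicate block Ran, which encodes the GTPase of nuclear transport and was picked out after its value was seen, was called lower (-0.46, adjusted p = 0.0158, against 0.0506 without it).

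**Figure D5:**
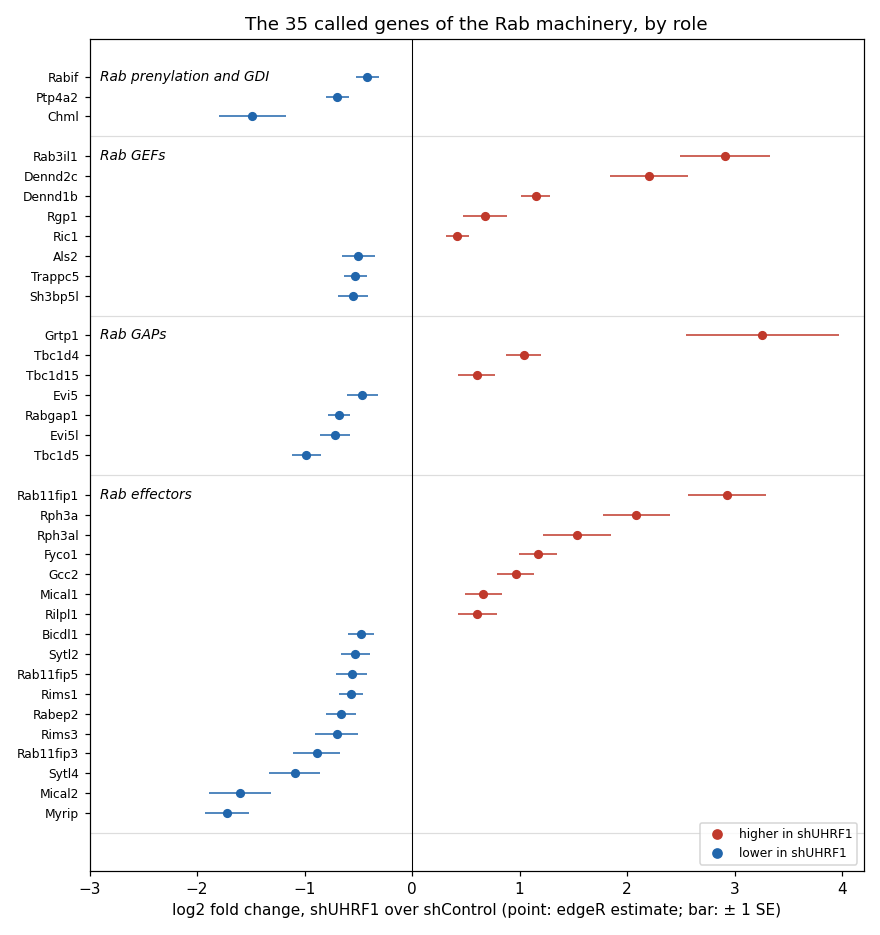
Log2 fold change of shUHRF1 over shControl for the 35 called genes of the Rab machinery, grouped by role (points, edgeR estimate; bars, ± 1 SE; red higher, blue lower). The 3 called genes of the 10 in the prenylation group lie below 0, and the 32 called GEF, GAP and effector genes lie on both sides.

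The lower members were compared with those not called in transcript properties and level. Their median exonic length was 3691 bases against 3538 in the members not called, their median GC content was 46.6% against 49.1%, and their median level was 63.0 against 43.5 CPM. With an offset for GC content and length 15 members were lower and 2 higher.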

How the data were processed

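Total RNA was sequenced in 6 libraries, 3 shControl and 3 shUHRF1, grouped by their titles. Per the labels' protocols, RNA was purified on columns with DNase, depleted of ribosomal RNA with Ribo-Zero Gold and made into cDNA with a SMARTer kit. The authors deposited whole-number read counts per gene for each library, and the tools FastQC, STAR, HTSeq and DESeq2 and the build mm10 are named in the submitters' processing notes. Whether counting used strand, like the tool versions and the annotation release, is not given in the sources used here. Reads that aligned to more than 1 place (30.5% to 37.3% of entries) were not assigned to genes, so closely related genes and the pseudogenes of Rab7, Rab5a, Rab11b and Rab9b can lower one another's counts. Summary lines that name no gene (outside genes 8.43% to 17.2%, ambiguous 2.12% to 2.27%) were kept out of all totals.

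Symbols and coordinates came from GENCODE M21 (GRCm38, also called mm10), which matched 47224 identifiers and missed 419. All 15573 genes passing filterByExpr were fitted with edgeR 4.0.16 in R 4.3.3 (TMM factors, group only, quasi-likelihood F test, two-sided, Benjamini-Hochberg over all tested genes, called at adjusted p below 0.05). The test gives no SE, so each SE printed is the absolute log2 fold change divided by the square root of the F statistic. CPM used TMM-scaled library sizes, and CPM per kb divided CPM by total exonic length. The members and lists were chosen with earlier results of these data known. Named were all called Rab genes, the highest per kb in each compartment, and the 4 called genes with the smallest p in each machinery list. Same-numbered libraries of the groups had correlated deviations from their group's mean (0.326, 0.363 and 0.440), and other pairs had -0.266 to -0.0378, so the numbers were taken to pair the libraries. This pairing is inferred from the data. Alternatives were DESeq2 1.42.0, limma 3.58.1 voom, other scalings, filters and thresholds, the block, a GC and length offset, each library left out and, chosen after seeing the data, pairs 1 and 3 alone.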

Additional observations from a re-analysis of the deposited data

How the results depend on the processing

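Depth limits the weakly expressed members, 8 of which could not be tested, and with 3 libraries a group small changes can be missed. Leaving out each library in turn gave 1768 to 3888 called genes in all (3735 with all libraries), 7 to 14 lower and 1 to 3 higher Rab genes (14 and 2), and 9 to 24 lower and 8 to 17 higher machinery genes (20 and 15). The libraries that moved these counts by over 1.5 times were shControl replicate 1, shControl replicate 3 and shUHRF1 replicate 3. With the replicate block 22 Rab genes were lower and 4 higher, and with the block and the GC and length offset 23 and 5. Upper-quartile scaling gave 3890 called genes in all, 7 lower Rab genes with a Rab median of -0.21, and 13 lower and 26 higher machinery genes. Without a low-count filter 5 Rab genes were higher. At an adjusted p below 0.01 the counts were 1434 called genes, 6 lower and 1 higher Rab gene, and 6 lower and 8 higher machinery genes. At 0.1 they were 22 lower Rab genes and 24 higher machinery genes. The cause of these differences was not tested.

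Of 591 values of single named genes under an alternative, 522 kept direction and side of the threshold, 56 lost and 10 gained a call, and 3 turned in sign. These were Rab3a with upper-quartile scaling (0.014) and Rab6b without shControl replicate 2 (-0.045; 0.16 without shControl replicate 3) and on library pairs 1 and 3 (-0.021), none of them called. DESeq2 gave 17 lower and 3 higher Rab genes, voom 14 and 2, and pairs 1 and 3 alone 11 and 2. On pairs 1 and 3 alone the calls for Rab3c, Rab39b, Rab9, Rab9b, Rab8a, Rab40c and Rabif were also lost (edgeR adjusted p = 0.0669 to 0.106). The Rab median stayed negative in all 16 alternative fits.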
